A study of Mus musculus with 6 samples.

Results

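The genes described here are 10 transporters that carry glucose, fructose and related sugars across kidney cell membranes. They were taken by name from the deposited tables: Slc2a1, Slc2a2, Slc2a4, Slc2a5, Slc2a8 and Slc2a9 of the facilitative GLUT family, and Slc5a1, Slc5a2, Slc5a10 and Slc5a11 of the sodium-coupled SGLT family. All 10 were found among the 24346 genes of each table, and all 10 reached the mean of 1 FPKM that was asked of a gene before it was tested. FPKM counts sequenced fragments per kilobase of transcript and per 1000000 mapped fragments, so that levels can be set side by side between genes.

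The kidneys came from mice in which 1 kidney had been removed (unilateral nephrectomy, UNX), an operation after which the other kidney enlarges. Both groups ate a serine-free diet for 1 week before surgery. The vehicle group (3 samples) drank water with no addition and the D-serine group (3 samples) drank water with 0.1% D-serine, the mirror-image form of L-serine, and kidneys were taken 2 days after the operation. The sources used here give neither strain, age nor sex, and do not tie each sample to a separate mouse, so a p-value weighs a difference against the spread of these samples, which may be technical. Sham-operated mice were not analysed here, so every level below belongs to a kidney 2 days after loss of its partner. The series title names glycolysis, and the comparison asks whether the carriers that bring its substrate across the membrane differed with D-serine.

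The kidney filters glucose into the urine space and recovers nearly all of it in the proximal tubule. On the apical side, SGLT carriers pull sugar into the cell with sodium, using the gradient that the sodium pump maintains. On the blood side, GLUT carriers let sugar leave or enter down its own gradient. SGLT2 (Slc5a2) with GLUT2 (Slc2a2) serves the early segments S1 and S2, and SGLT1 (Slc5a1) takes up the remainder later in the tubule. GLUT1 (Slc2a1) supplies many cell types, the distal nephron included, with glucose from the blood.

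No transporter passed the test between D-serine and vehicle. In limma, with Benjamini-Hochberg adjustment over 11737 genes and a threshold of 0.05, 0 of 10 were called, against 0.0767% of all genes tested (9 genes). At an unadjusted p under 0.05 there was 1 of 10, Slc2a8, against 27.7% of all genes tested (13.1% on the higher side). Slc2a8 was also the 1 gene of the 10 whose 3 D-serine libraries all lay above the 3 vehicle libraries, where 16.5% of all tested genes did so in that direction and 35.8% in either. The median log2 difference of the 10 was 0.036, with 6 above and 4 below 0, and that of all tested genes was -0.0078. A p that misses the threshold does not show that levels were alike, and the interval of each difference is given below.

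**Figure D1:**
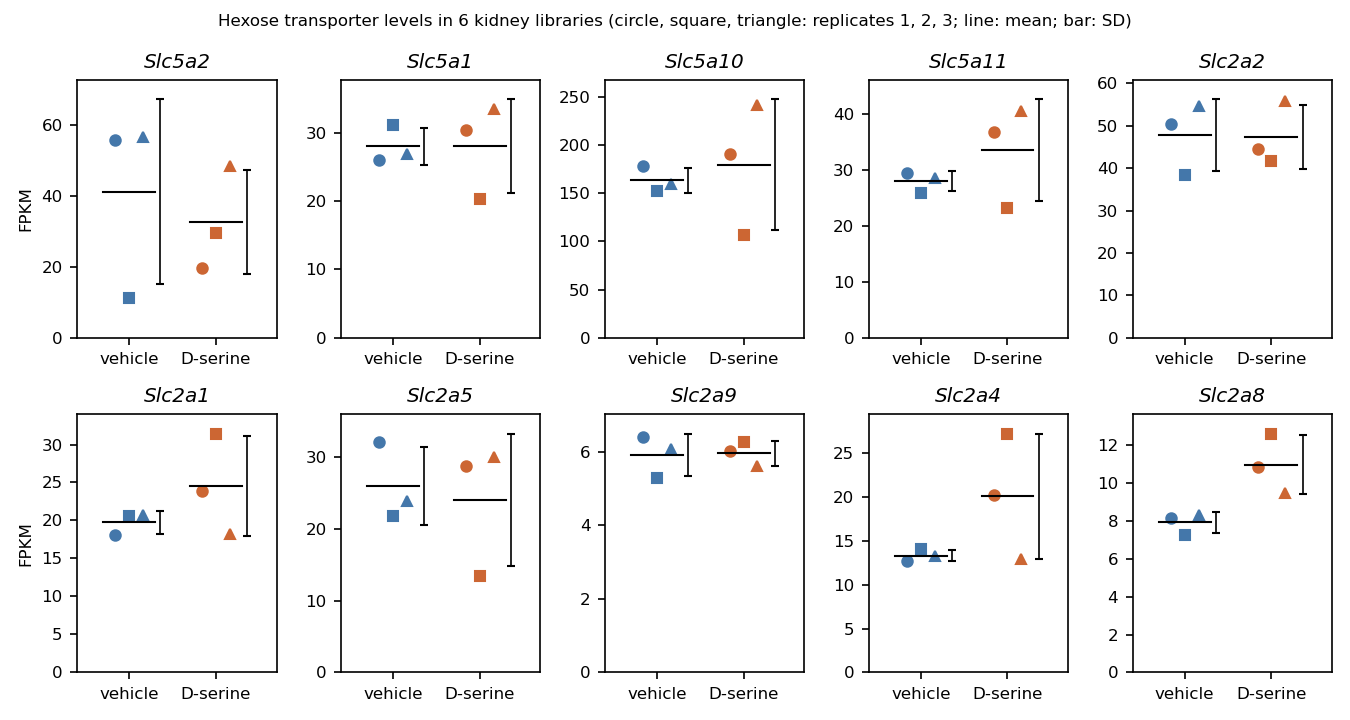
FPKM (vertical axes, from 0) of each transporter in the 3 vehicle and 3 D-serine libraries. Circles, squares and triangles are replicates 1, 2 and 3, the line is the group mean and the bar beside it the SD. Slc5a2 ran from 11.1 to 56.6 FPKM within the vehicle group alone, and the groups were separate for Slc2a8 only.

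Levels spanned a wide range. In the vehicle group Slc5a10 stood highest at a mean of 163 FPKM, above Slc2a2 (47.8), Slc5a2 (41.2), Slc5a1 (28.0), Slc5a11 (27.9), Slc2a5 (26.0), Slc2a1 (19.8), Slc2a4 (13.3), Slc2a8 (7.93) and Slc2a9 (5.92 FPKM). From Slc2a2 down to Slc2a5 each gene overlapped the next in the order, while Slc5a10 at the top and the 4 lowest genes were each separate from their neighbours in the 3 vehicle libraries. In the D-serine group Slc5a10 and Slc2a2 at the top and Slc2a8 and Slc2a9 at the bottom were separate from their neighbours, and the 6 genes between them, from Slc5a11 to Slc2a4, each overlapped the next of the 6. Neighbours are only the genes next in the order of means. Slc5a2, at 11.1 to 56.6 FPKM in the vehicle libraries, also overlapped Slc2a1 and Slc2a4 there. With D-serine its highest value, 48.6 FPKM, lay within the range of Slc2a2 (41.6 to 55.8 FPKM). Slc5a10 alone held 40.0 to 46.5% of the summed FPKM of the 10 genes in the vehicle libraries and 34.1 to 48.6% in the D-serine libraries. The 4 sodium-coupled genes together made up 67.2 to 69.3% of that sum with vehicle, and 67.4, 57.5 and 73.3% in D-serine replicates 1 to 3. The D-serine libraries thus lay on both sides of the narrow vehicle range.

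Slc5a2 encodes SGLT2, the main apical glucose carrier of the early proximal tubule. It lies on chromosome 7 (128265657 to 128272430, GRCm38, the assembly that mm10 also names). Its level was 55.9, 11.1 and 56.6 FPKM in vehicle replicates 1 to 3 and 19.8, 29.6 and 48.6 FPKM in D-serine replicates 1 to 3. Vehicle replicate 2 was the lowest of all 6 libraries, and all 3 D-serine libraries fell inside the vehicle range. The group means were 41.2 ± 26.1 and 32.7 ± 14.6 FPKM (SD, n = 3 each), and the log2 difference was -0.11 with a 95% interval from -1.56 to 1.34 (limma adjusted p = 0.92), which is too wide to exclude a 2-fold change either way. Without vehicle replicate 2 the log2 difference was -0.86, and without vehicle replicate 1, vehicle replicate 3 or D-serine replicate 1 it turned positive, at 0.26, 0.27 and 0.19. Slc5a2 shares 597 exon bases with BC017158, a gene on the opposite strand, and the sources used here do not give the strand setting of the counting, so fragments of the pair may be mixed.

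Slc5a1 encodes SGLT1, the high-affinity carrier of the late proximal tubule (chromosome 5, 33104219 to 33162870). It stood at 26.0, 31.0 and 26.9 FPKM in the vehicle libraries and 30.4, 20.4 and 33.4 FPKM in the D-serine libraries. The D-serine libraries held both the highest and the lowest value. The log2 difference was -0.021 (95% interval -0.45 to 0.41, limma adjusted p = 0.95). The same 2 libraries were the highest and the lowest for Slc5a10 and Slc5a11, and not for Slc5a2.

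Slc5a10 encodes SGLT5, a carrier of mannose and fructose (chromosome 11, 61672781 to 61720826). Its level was 178, 152 and 159 FPKM in the vehicle libraries and 191, 106 and 241 FPKM in the D-serine libraries, so replicate 3 was more than double replicate 2 (2.27-fold) within the D-serine group, where the vehicle libraries differed by 1.17-fold at most. The log2 difference was 0.060 (-0.58 to 0.70, limma adjusted p = 0.90), and without D-serine replicate 2 it was 0.40. Slc5a10 shares 393 exon bases with Fam83g and 4 with Grap, both on the opposite strand. Slc5a11 encodes SMIT2, which carries myo-inositol and also glucose (chromosome 7, 123214780 to 123273253). It stood at 29.3, 25.9 and 28.6 FPKM in the vehicle libraries and 36.7, 23.2 and 40.6 FPKM in the D-serine libraries, again lowest in D-serine replicate 2 and highest in replicate 3. The ratio of Slc5a11 to Slc5a10 stayed between 0.165 and 0.218 in the 6 libraries.

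Among the facilitative carriers, Slc2a2 encodes GLUT2, the basolateral exit for glucose in the early proximal tubule (chromosome 3, 28697903 to 28731359). It was at 50.4, 38.3 and 54.7 FPKM in the vehicle libraries and 44.6, 41.6 and 55.8 FPKM in the D-serine libraries. The groups overlapped, and the lowest library was vehicle replicate 2, as for Slc5a2. The means of 47.8 ± 8.48 and 47.3 ± 7.48 FPKM gave a log2 difference of -0.010 (-0.40 to 0.38, limma adjusted p = 0.97). Its direction turned with quantile normalization (0.057) and with 6 other alternatives.

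Slc2a5 encodes GLUT5, a fructose carrier (chromosome 4, 150119283 to 150144169). It stood at 32.2, 21.8 and 23.9 FPKM in the vehicle libraries and 28.8, 13.5 and 30.0 FPKM in the D-serine libraries. D-serine replicate 2 was the lowest library by a wide margin, and the other 2 D-serine libraries lay within the vehicle range. The log2 difference was -0.17 (-0.87 to 0.54, limma adjusted p = 0.74), and without D-serine replicate 2 it was 0.19. Slc2a9 encodes GLUT9, known above all as a urate carrier (chromosome 5, 38349273 to 38503143). It varied least of the 10, at 6.41, 5.29 and 6.08 FPKM in the vehicle libraries and 6.01, 6.28 and 5.61 FPKM in the D-serine libraries. All 3 D-serine libraries lay inside the vehicle range, and the interval of its log2 difference, -0.24 to 0.26 around 0.011, was the narrowest of the 10.

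Slc2a1, Slc2a4 and Slc2a8 had the highest library in common, D-serine replicate 2. Slc2a1 encodes GLUT1 (chromosome 4, 119108711 to 119137983). It was at 18.0, 20.6 and 20.7 FPKM in the vehicle libraries and 23.9, 31.4 and 18.3 FPKM in the D-serine libraries, so that 2 of 3 D-serine libraries lay above the vehicle range. The log2 difference was 0.27 (-0.16 to 0.70, limma adjusted p = 0.37), and 0.080 without D-serine replicate 2. Slc2a1 shares 105 exon bases with the antisense gene Gm12868. Slc2a4 encodes GLUT4, the insulin-responsive carrier of muscle and fat (chromosome 11, 69942539 to 69948188). It was at 12.7, 14.0 and 13.2 FPKM in the vehicle libraries and 20.2, 27.2 and 12.9 FPKM in the D-serine libraries, where replicates 1 and 2 were above the vehicle range and replicate 3 within it. Its means of 13.3 ± 0.671 and 20.1 ± 7.14 FPKM gave the largest log2 difference of the 10, 0.50 (-0.047 to 1.05, limma adjusted p = 0.21). Without D-serine replicate 3 the log2 difference of Slc2a4 was 0.77 and it passed (limma adjusted p = 0.048), and without D-serine replicate 2 it was 0.26. Markers of fat and muscle were at or near 0 in these libraries: the 4 adipocyte markers summed to 0 FPKM in the vehicle libraries and to at most 0.208 FPKM in the D-serine libraries, with Plin1 and Lep at 0 in all 6, and the 4 skeletal muscle markers to at most 0.645 and 1.03 FPKM.

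Slc2a8 encodes GLUT8, a carrier held mostly on intracellular membranes (chromosome 2, 32972990 to 32982083). It was at 8.19, 7.28 and 8.32 FPKM in the vehicle libraries and 10.9, 12.6 and 9.47 FPKM in the D-serine libraries. The 2 groups did not overlap. The means were 7.93 ± 0.568 and 11.0 ± 1.58 FPKM (SD, n = 3 each), a log2 difference of 0.42 ± 0.12 (SE) with an interval from 0.13 to 0.70, or 1.34-fold (1.10 to 1.63), and the limma adjusted p was 0.098. The difference stayed positive in each of 16 alternatives, between 0.32 and 0.51, with an adjusted p between 0.062 and 0.27, so it passed in none.

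**Figure D2:**
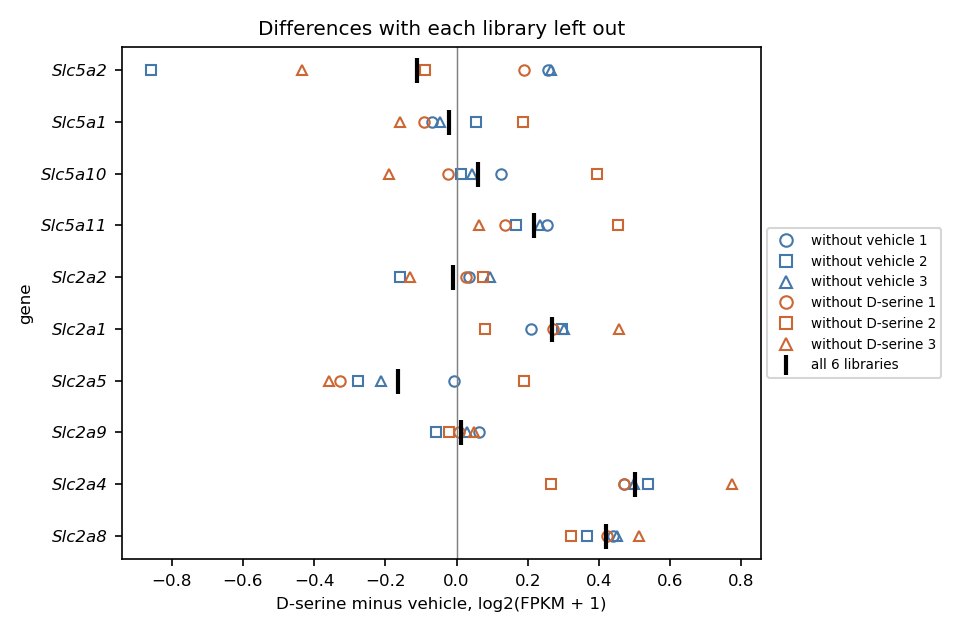
Log2 difference (horizontal axis, D-serine minus vehicle on the log2(FPKM + 1) scale) of each transporter from all 6 libraries (black tick) and with each library left out (open symbols, blue without a vehicle and orange without a D-serine library). Slc2a8, Slc2a4, Slc2a1 and Slc5a11 stayed above 0 in each of the 6 fits, and Slc5a2 ran from -0.86 to 0.27.

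Promoter sequence was available for 8 of the 10 genes from RefSeq (GRCm38.p6), with no entry matched for Slc2a4 and Slc5a2. The 250 bases before the annotated start are shown for the 2 pairs of these 8 genes with the nearest patterns over the 6 libraries, chosen after their values were seen: Slc5a10 and Slc5a11, which were lowest in D-serine replicate 2, and Slc2a1 and Slc2a8, which were highest there (root mean square distances of centred log2 values of 0.14 and 0.16). Capitals mark 2 motifs searched on both strands: the GC box GGGCGG (held by 32.7% of 32817 windows of this length) and the E-box CACGTG (6.02%). The windows are chr4:119108495-119108744 (plus strand) for Slc2a1, chr2:32982084-32982333 (minus strand) for Slc2a8, chr11:61720800-61721049 (minus strand) for the first of 2 windows of Slc5a10, and chr7:123214616-123214865 (plus strand) for Slc5a11. The RefSeq starts of Slc2a1, Slc5a10 and Slc5a11 lie inside the gene positions given above, so their windows run partly into those genes.
Slc2a1: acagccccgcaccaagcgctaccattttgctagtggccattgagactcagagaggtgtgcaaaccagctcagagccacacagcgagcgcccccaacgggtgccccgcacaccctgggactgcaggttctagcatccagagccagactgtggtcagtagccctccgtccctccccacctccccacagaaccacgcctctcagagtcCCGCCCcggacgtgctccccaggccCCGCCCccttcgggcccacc
Slc2a8: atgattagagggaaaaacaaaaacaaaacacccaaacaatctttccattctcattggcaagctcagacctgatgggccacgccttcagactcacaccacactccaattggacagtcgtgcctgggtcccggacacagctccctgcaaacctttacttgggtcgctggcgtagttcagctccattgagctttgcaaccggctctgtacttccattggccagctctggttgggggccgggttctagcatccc
Slc5a10: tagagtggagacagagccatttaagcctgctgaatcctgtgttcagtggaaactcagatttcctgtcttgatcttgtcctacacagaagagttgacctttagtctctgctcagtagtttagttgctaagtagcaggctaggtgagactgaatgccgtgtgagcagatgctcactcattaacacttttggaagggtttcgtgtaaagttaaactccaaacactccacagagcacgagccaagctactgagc
Slc5a11: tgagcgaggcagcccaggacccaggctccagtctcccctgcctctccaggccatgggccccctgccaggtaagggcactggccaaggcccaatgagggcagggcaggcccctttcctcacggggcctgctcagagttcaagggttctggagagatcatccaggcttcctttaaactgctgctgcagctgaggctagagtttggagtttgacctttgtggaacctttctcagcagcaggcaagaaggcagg
The Slc2a1 window held 2 GC boxes, both on the reverse strand, and the Slc2a8 window held neither motif. The windows of Slc5a10 and Slc5a11 held neither motif. Among the genes whose windows are not shown, Slc2a5 had 3 GC boxes and Slc5a1 had 1 E-box. Neither pair had a motif in common in these windows, which says only that these letters did not recur there. The GC content was 66.4% for Slc2a1, 52.8% for Slc2a8, 45.6% for Slc5a10 and 60.8% for Slc5a11, with a median of 52.4% over all windows.

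Ratios between 2 carriers in the same library do not depend on how libraries are scaled, and 4 were compared with an exact permutation test (two-sided, smallest possible p 0.1 for 3 against 3). The ratio of Slc5a1 to Slc5a2, late against early apical glucose uptake, was 0.465, 2.79 and 0.474 in the vehicle libraries and 1.53, 0.687 and 0.688 in the D-serine libraries (exact p = 1). Slc5a1 exceeded Slc5a2 in vehicle replicate 2 and D-serine replicate 1 and was below it in the other 4 libraries. The ratio of Slc2a1 to Slc2a2, the 2 basolateral glucose carriers, was 0.358, 0.536 and 0.378 in the vehicle libraries and 0.537, 0.756 and 0.328 in the D-serine libraries (exact p = 0.6). The ratio of Slc5a2 to Slc2a2 ran from 0.291 to 1.11 (exact p = 0.9) and that of Slc2a9 to Slc2a2 from 0.101 to 0.151 (exact p = 1). Adjusted over the 4 ratios each p was 1, and the groups overlapped in all 4.

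Segment markers differed between the libraries too, although no marker passed in limma after adjustment. At an unadjusted p under 0.05 there were 3 of 11 S1 and S2 markers and 7 of 8 tested S3 markers, all lower, and 4 of 6 principal cell, 3 of 5 intercalated cell and 2 of 5 distal convoluted and connecting tubule markers, all higher, where 14.6% of all tested genes were lower and 13.1% higher at that p. Of the other lists, 1 of 5 thick ascending limb markers was lower, 1 of 4 podocyte markers was higher, the 2 tested leukocyte and macrophage markers went 1 each way, and 0 endothelial, erythroid or fibroblast markers were below that p. In bulk tissue, fewer cells of a type and less RNA per cell cannot be told apart. The tissue label held: the kidney genes Slc34a1, Umod and Aqp2 were present in all 6 libraries. For S1 and S2, 8 of 11 markers had a lower mean with D-serine, and their summed level ran from 3900 to 4527 FPKM in the vehicle libraries and 3430 to 4114 FPKM in the D-serine libraries. The mean log2(FPKM + 1) of these 11 markers was 7.34, 6.66 and 7.12 in vehicle replicates 1 to 3 and 6.58, 6.45 and 7.19 in D-serine replicates 1 to 3. Vehicle replicate 2 and D-serine replicates 1 and 2, the libraries with the 3 lowest Slc5a2 values, also had the 3 lowest marker means. For S3, 9 of 9 markers were lower in the mean, with sums of 5626 to 6200 FPKM in the vehicle libraries and 2832 to 4082 FPKM in the D-serine libraries, while Slc5a1 of the late tubule had overlapping groups.

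Distal markers ran the other way. Of the 6 principal cell markers 5 were higher in the mean with D-serine, and their sum was 283, 382 and 360 FPKM in the vehicle libraries and 567, 635 and 418 FPKM in the D-serine libraries. The 5 intercalated cell markers were all higher in the mean, with sums of 134 to 152 and of 155 to 211 FPKM. The 5 distal convoluted and connecting tubule markers were all higher in the mean, with sums of 578 to 752 and of 760 to 892 FPKM. D-serine replicate 2 had the highest principal cell sum and the highest Slc2a1, Slc2a4 and Slc2a8, and D-serine replicate 3 had the lowest principal cell sum and the lowest value of these 3 carriers in that group. In the vehicle group the carriers did not all keep this order. Vehicle replicate 2 had the highest principal cell sum of its group and its highest Slc2a4 (14.0 FPKM), but the lowest Slc2a8 of all libraries (7.28 FPKM). The sum of D-serine replicate 3 lay above every vehicle library, as did its Slc2a8 (9.47 FPKM). Its Slc2a1 (18.3 FPKM) and Slc2a4 (12.9 FPKM) lay within the vehicle range. The part of these markers in the carrier levels was not tested.

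**Figure D3:**
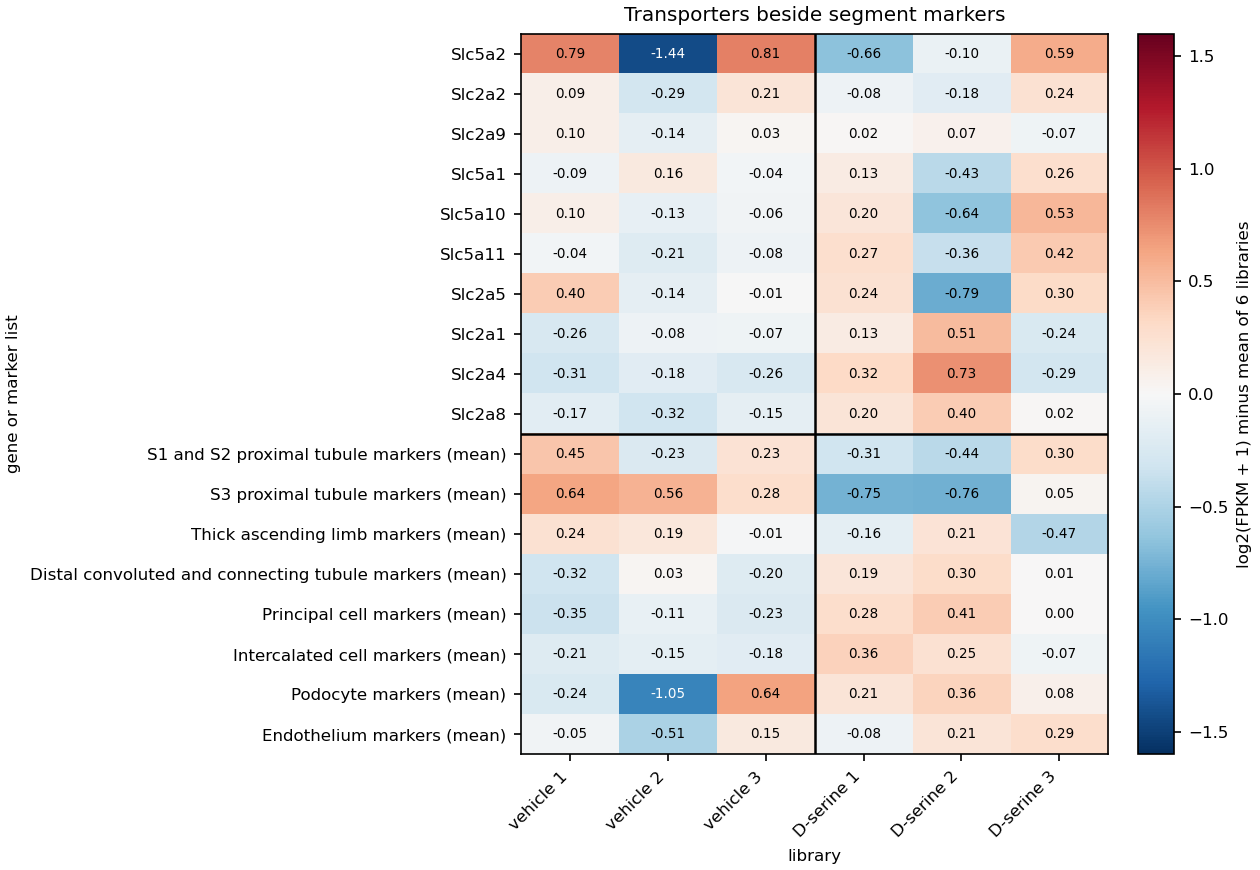
Log2(FPKM + 1) minus the mean of the 6 libraries for each transporter (above the line) and for the mean of each marker list (below it), by library, with red above and blue below the mean. Slc5a2 was at -1.44 in vehicle replicate 2, where the S1 and S2 markers were at -0.23 and the podocyte markers at -1.05, and Slc2a4 was at 0.73 in D-serine replicate 2, where the principal cell markers were at 0.41.

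The genes whose pattern lay closest to a carrier were taken by the root mean square distance of log2(FPKM + 1), centred per gene, over the 6 libraries and 10937 genes. Slc5a2 lay closest to Slc5a12, at a distance of 0.20 where the median gene was at 0.86. Slc5a12 is a sodium-coupled lactate carrier of the early proximal tubule and 1 of the S1 and S2 markers, at 40.2, 8.99 and 38.8 FPKM in the vehicle libraries and 13.3, 15.4 and 38.3 FPKM in the D-serine libraries. The ratio of Slc5a2 to Slc5a12 stayed between 1.24 and 1.93, although Slc5a2 itself differed 5.08-fold between libraries. Cyp2d26 (0.36) and Prodh2, which acts on hydroxyproline (0.36), came next. Slc5a2 did not follow every marker of its segment: against the phosphate carrier gene Slc34a1 its ratio differed 4.63-fold.

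**Figure D4:**
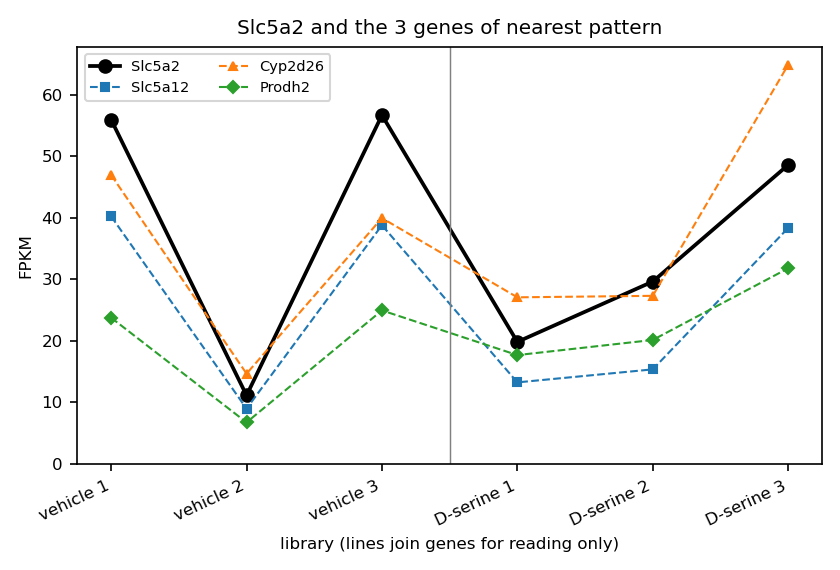
FPKM (vertical axis, from 0) of Slc5a2 and of the 3 genes with the nearest pattern, Slc5a12, Cyp2d26 and Prodh2, in the 6 libraries. All 4 genes were lowest in vehicle replicate 2, where Slc5a2 was at 11.1 and Slc5a12 at 8.99 FPKM.

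The nearest genes were taken for 4 other carriers too, and each had a closer neighbour than Slc5a2. Each also varied less, with a root mean square deviation of 0.20 for Slc2a2, 0.22 for Slc5a1, 0.40 for Slc2a5 and 0.26 for Slc2a1 against 0.83 for Slc5a2. Slc2a2 lay closest to the anion transporter gene Slc26a11 (0.042), Rbm33 (0.069) and Umps, which makes uridine monophosphate (0.071), and 28 genes lay within 0.1 of it. Slc5a1 lay closest to the riboflavin transporter gene Slc52a2 (0.033), Tmem147 (0.038) and the cytochrome oxidase subunit gene Cox5a (0.061). Slc2a5 lay closest to the Wnt receptor gene Fzd1 (0.10), Lrrc3 (0.13) and Rnd2 (0.13). Slc2a1 lay closest to Dhx35 (0.051), Snhg1 (0.054) and Dennd2d (0.059). Among the carriers themselves the nearest pairs were Slc5a10 with Slc5a11 (0.14), Slc2a1 with Slc2a4 (0.15) and Slc2a1 with Slc2a8 (0.16). These distances describe 6 libraries and carry no test.

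The rest of the Slc2a and Slc5a families held 15 genes, of which 6 were tested and 0 called in either direction in limma, with a median log2 difference of -0.19. Of the 6, 2 had an unadjusted p under 0.05, both lower, where 14.6% of all tested genes did so. Slc5a8, a sodium-coupled carrier of lactate and short-chain fatty acids, was at 116, 126 and 97.0 FPKM in the vehicle libraries and 79.4, 57.4 and 90.4 FPKM in the D-serine libraries, with separate groups (log2 difference -0.59, limma adjusted p = 0.11). Slc5a3, the myo-inositol carrier SMIT1, was at 9.17, 9.06 and 7.79 FPKM and at 5.77, 7.85 and 5.70 FPKM (-0.39, limma adjusted p = 0.13), with overlapping groups. The multivitamin carrier gene Slc5a6 (0.13) and Slc2a12 (-0.096), of the facilitative family, had smaller log2 differences. The other 9 genes were under a mean of 1 FPKM and were not tested, among them the neuronal glucose carrier gene Slc2a3, at 0.118 FPKM or less.

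Of 16 regulators, partners and sodium gradient genes, 16 were tested and 0 called in limma, 6 higher and 10 lower on the log2 scale, with a median log2 difference of -0.11 and 2 higher and 3 lower at an unadjusted p under 0.05. These shares lay near those of all tested genes (13.1% higher, 14.6% lower). Pdzk1ip1 encodes MAP17, the small membrane protein that SGLT2 needs for activity. It was at 826, 729 and 999 FPKM in the vehicle libraries and 1092, 1371 and 1120 FPKM in the D-serine libraries, with separate groups, a log2 difference of 0.49 (0.15 to 0.84) and a limma adjusted p of 0.10. Its highest library was D-serine replicate 2, where Slc5a2 was at 29.6 FPKM. Hnf4a, a transcription factor of the proximal tubule, was at 195, 174 and 172 FPKM and at 135, 129 and 146 FPKM (-0.39, limma adjusted p = 0.080). Txnip, which promotes the removal of GLUT1 from the membrane, was at 174, 230 and 233 FPKM and at 131, 210 and 256 FPKM (-0.14), with overlapping groups.

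The list also held genes of the sodium gradient on which the SGLT carriers depend. Slc9a3, the apical sodium-hydrogen exchanger NHE3, was at 13.8, 7.88 and 9.92 FPKM in the vehicle libraries and 5.40, 6.44 and 6.15 FPKM in the D-serine libraries (log2 difference -0.69, limma adjusted p = 0.085). Its groups were separate, as for 4 of the 16 genes on the lower side, where 19.4% of all tested genes were separate in that direction. Fxyd2, the gamma subunit of the sodium pump, named after its values were seen, lay the other way, at 6105, 6442 and 7045 FPKM and at 7842, 8036 and 7315 FPKM (0.24, limma adjusted p = 0.16).

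Of 14 genes that handle hexoses inside the cell, 10 were tested and 0 called in limma, 3 higher and 7 lower on the log2 scale, with a median log2 difference of -0.20 and 2 genes, both lower, at an unadjusted p under 0.05, near the 14.6% of all tested genes. Slc37a4, which carries glucose 6-phosphate into the endoplasmic reticulum for release as glucose, was at 222, 227 and 247 FPKM in the vehicle libraries and 177, 127 and 182 FPKM in the D-serine libraries (-0.53, limma adjusted p = 0.094). Sord, which turns sorbitol into fructose, was at 1103, 1091 and 1080 FPKM and at 769, 600.3 and 939 FPKM (-0.53, limma adjusted p = 0.10). The groups were separate for both. They were separate too for the fructokinase gene Khk, at 972, 982 and 986 FPKM and at 930, 707 and 953 FPKM (-0.20, limma adjusted p = 0.35). These 3 of the 10 tested genes were lower, where 19.4% of all tested genes were separate in that direction. The gluconeogenic gene Fbp1 (-0.69) had overlapping groups, with D-serine replicate 2 lowest at 336 FPKM. Akr1b3 (aldose reductase) was listed at 0 in all 6 libraries, which in FPKM tables can be a failed estimate.

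**Figure D5:**
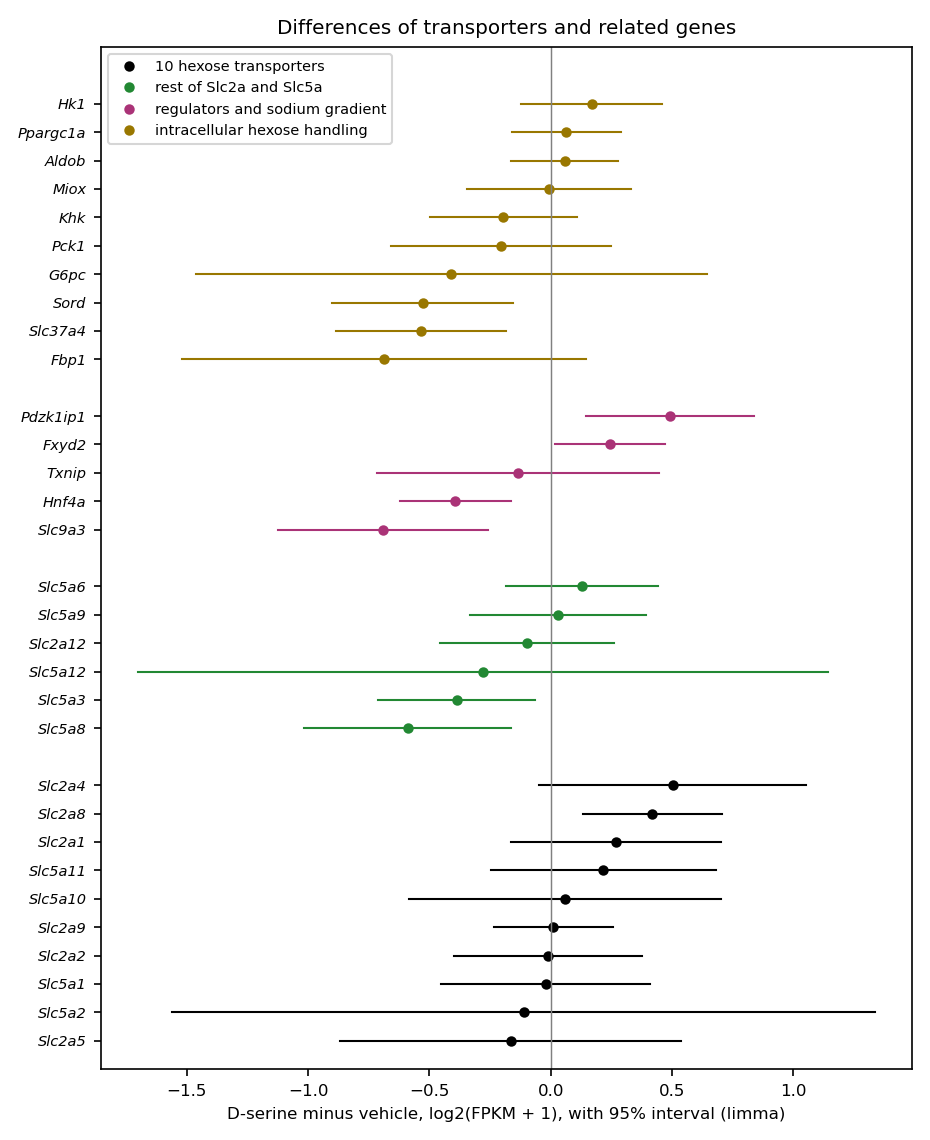
Log2 difference (horizontal axis, D-serine minus vehicle on the log2(FPKM + 1) scale) with its 95% interval from limma for the 10 transporters (black), the rest of the Slc2a and Slc5a families (green), the 5 regulators and sodium gradient genes described above (purple) and intracellular hexose genes (brown). The intervals are unadjusted. Of the 10 transporters, Slc2a8 (0.13 to 0.70) had an interval that left out 0, and that of Slc5a2 was the widest (-1.56 to 1.34).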

How the data were processed

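Kidney mRNA from 3 vehicle and 3 D-serine samples was extracted with TRIzol and sequenced from TruSeq stranded mRNA libraries (from the labels' protocols). The submitters' processing notes name TopHat2 2.0.13, Bowtie2 2.2.3, SAMtools 0.1.19, Cufflinks 2.2.1 and build mm10. Values are FPKM as deposited by the authors, in 1 table for each sample, and the sources used here give no annotation or strand setting. FPKM tables hold no counts, so no count test or interval was made from them. A rough total came from genes with 1 transcript of at least 1000 bases, above 0 in 1 library only. Each such value was taken as 1 fragment. The median over these genes was 6.43 to 8.12 per library, in units of 1000000 fragments, with wide quartiles (3.57 to 7.12 for D-serine replicate 2). That gave about 160 fragments for Slc2a9 and 2800 for Slc5a10 at their means. Kap, a proximal tubule gene, took 11.6 to 15.8% of each library's summed FPKM.

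Groups were compared with limma 3.58.1 (R 4.3.3), with moderated variances that follow a trend with the mean, on log2(FPKM + 1), two-sided, over the 11737 genes that averaged 1 FPKM or more, adjusted by Benjamini-Hochberg at 0.05. Differences are on that scale, which understates changes of low genes. Ratios used an exact permutation test (scipy 1.17.1). The scripts were tested on simulated data. For limma, 200 genes were changed by a known fold in values simulated with the means and spread of these libraries. The test recovered 33 of the 200 at 1.5-fold, 158 at 2-fold and 193 at 4-fold, so changes near 1.5-fold would mostly be missed. Positions came from GENCODE M21. The named genes were the 10 transporters, the 4 genes of smallest unadjusted p of each related list, Pdzk1ip1, Hnf4a and Txnip, and 3 genes of nearest pattern for each of 5 transporters; some genes under this rule are not reported here. Other genes are named as markers, for position or after their values were seen. The transporters, lists and tests were chosen with earlier results of these data known. Alternatives were the pseudocount (0.1, 0.01), the minimum (none, 5 FPKM), scaling, variance trend, library weights, the replicate block, small RNA genes left out, and each library left out.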

Additional observations from a re-analysis of the deposited data

How the results depend on the processing

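The count of transporters called was 0 under 15 of 16 alternatives in limma and 1 (Slc2a4) without D-serine replicate 3. Of 160 alternative values of the 10 log2 differences, 138 kept their direction and side of the threshold, 21 turned direction and 1 (Slc2a4) came to pass. The count of all genes called, 9, depends on the processing: it was 171 and 221 with a pseudocount of 0.1 and 0.01, 132 with a minimum of 5 FPKM, 15 with median of ratios scaling, 269 with library weights, 332 with 101 small RNA genes left out, and between 2 and 437 with 1 library left out (437 without D-serine replicate 3). The cause was not tested. With the replicate block it was 2, and 0 transporters were called. Deviations of same-numbered libraries correlated at -0.070, 0.003 and 0.067 for numbers 1 to 3. Vehicle replicates 1, 2 and 3 correlated best with D-serine replicates 2, 1 and 3. With 3 libraries in each group, such values cannot show whether same-numbered samples were paired, and the sample labels give only a replicate number. The directions that turned belonged to small differences. Slc2a2 was at 0.0055 with median of ratios scaling, 0.057 with quantile normalization and 0.018 with library weights, Slc5a1 at 0.011 with quantile normalization and 0.082 with weights, and Slc2a5 (0.0036) and Slc2a9 (-0.0032) turned with weights, in which D-serine replicate 2 had the lowest weight (0.394). With 1 library left out, Slc2a2 ran from -0.16 to 0.093, Slc5a2 from -0.86 to 0.27, Slc2a9 from -0.057 to 0.062, Slc5a1 from -0.16 to 0.19, Slc5a10 from -0.19 to 0.40, Slc2a5 from -0.36 to 0.19 and the median of the 10 from -0.042 to 0.19. The log2 difference of the ratio of Slc5a1 to Slc5a2 (0.079 from all 6 libraries) ran from -0.36 to 0.94, that of Slc5a2 to Slc2a2 (-0.092) from -0.72 to 0.25 and that of Slc2a9 to Slc2a2 (0.024) from -0.10 to 0.19. The ratio of Slc2a1 to Slc2a2 stayed positive, from 0.0067 to 0.61. By the rough totals Slc2a9 and Slc2a8 had the fewest fragments at their means, about 160 and 210, so counting error bears most on them. No interval for that error could be made from FPKM. The intervals between groups did not follow these totals: that of Slc2a9 was the narrowest of the 10 and that of Slc5a2 the widest.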
